A study of Mus musculus with 24 samples.

Results

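T cell receptor variable (V) segments were followed in 24 bulk RNA sequencing libraries of mouse pancreatic tumours. A V segment was taken where the gene table gives it the biotype TR_V_gene and it had at least 10 reads summed over the 24 libraries. That left 70 segments of the 144 V genes in the table, which holds 54532 genes in all. The 70 segments are 46 of the alpha chain (Trav), 17 of the beta chain (Trbv), 4 of the gamma chain and 3 of the delta chain (Trdv). The table spells 3 of the 4 gamma segments Tcrg-V6, Tcrg-V7 and Tcrg-V1, and these were counted with Trgv2 as gamma. Alpha segments that delta chains can also use, with dv in their names, were counted as alpha: 6 of 10 such segments were among the 70, with 134 reads.

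There were 4 groups of 6 libraries, PBS (buffered saline, the control), GEM, IGEL and LIGEL, all from day 24. The labels do not expand the last 3 names, and the series title names losartan, a blood pressure drug that blocks the angiotensin receptor, and a nanocarrier given after it. Mouse strain, tumour line, age and dose were not in the labels used here. Whether each library is a separate animal is not stated, and p-values therefore describe the spread among these samples alone, part of which may be technical. Library totals ranged from 27.1 to 40.5 M reads. The labels name pancreatic tumour as the tissue while the titles say muscle. Ductal and tumour epithelial genes (Krt8, Krt18, Krt19, Epcam, Sox9) summed to 498 to 1454 CPM (reads per M reads of the library total after scaling by TMM, a factor for composition), and 5 skeletal muscle genes to at most 10.8 CPM outside IGEL replicate 4, where they reached 238 CPM. PBS replicate 5 stood apart, with 10 acinar (digestive enzyme) genes at 605544 CPM against at most 166026 CPM in any other library. Its TMM factor of 0.548 raises its CPM values above plain shares of its reads, so differences from PBS are given without it as well where it matters.

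Each T cell assembles its receptor by joining a V segment to a J segment, and in beta and delta chains to a D segment as well, and then carries the joined chain through all its divisions. Most T cells carry an alpha and a beta chain, and a smaller population carries gamma and delta. The V segment supplies the first contact loops with antigen and the start of the third, so the segments read in a tissue give a coarse view of which receptors its T cells carry, without showing single clones. In bulk RNA, fewer T cells and less receptor RNA per cell cannot be told apart.

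The 3′ ends of the segments on which the results turn are shown because this is where a V segment meets the joined part of the receptor. They are the last 60 bases, 5′ to 3′ in the direction of the gene, from the GENCODE mouse release M21 transcripts on GRCm38 (mm10), with the bases from the codon of the conserved second cysteine onward in capitals. The first set holds the most abundant beta segments and their near relatives.
Trbv14: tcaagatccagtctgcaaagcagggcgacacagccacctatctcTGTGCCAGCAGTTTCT
Trbv12-1: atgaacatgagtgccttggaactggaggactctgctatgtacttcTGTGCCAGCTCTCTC
Trbv12-2: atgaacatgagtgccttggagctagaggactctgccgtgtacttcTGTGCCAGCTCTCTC
Trbv13-1: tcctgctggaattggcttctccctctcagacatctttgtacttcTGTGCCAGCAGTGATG
Trbv13-2: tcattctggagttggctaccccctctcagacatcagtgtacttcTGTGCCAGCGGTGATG
Trbv13-3: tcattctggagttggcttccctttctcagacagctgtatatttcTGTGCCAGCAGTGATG
Trbv16: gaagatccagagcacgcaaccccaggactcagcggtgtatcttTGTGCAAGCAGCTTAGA

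The second set shows alpha segments that exist as near-identical copies, and the leading gamma and delta segments. The ends of Trav10, Trav10n and Trav10d are the same 60 bases. Trav11 is the alpha segment of invariant natural killer T cells.
Trav10: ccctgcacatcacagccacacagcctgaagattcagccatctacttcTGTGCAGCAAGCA
Trav10n: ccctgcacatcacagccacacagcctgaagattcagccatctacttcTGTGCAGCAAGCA
Trav10d: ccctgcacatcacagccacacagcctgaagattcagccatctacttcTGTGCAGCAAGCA
Trav5-4: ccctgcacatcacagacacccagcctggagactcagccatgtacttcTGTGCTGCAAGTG
Trav11: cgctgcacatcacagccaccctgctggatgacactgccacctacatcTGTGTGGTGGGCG
Trgv2: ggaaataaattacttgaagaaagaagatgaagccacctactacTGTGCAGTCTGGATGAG
Trdv4: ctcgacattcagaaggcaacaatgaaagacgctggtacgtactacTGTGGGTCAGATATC

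Which V segments received reads went with how much of each segment is found in no other. Each segment was cut into all its stretches of 50 bases, and a stretch was counted as the segment's own where no other V segment holds it. The 70 segments with 10 or more reads had a median of 74.2% of stretches of their own (range 1.01 to 100%). For the 17 beta segments that share was 98.8 to 100%, and for the 46 alpha segments the median was 55.8%. Of the 45 V genes with 0 reads in all libraries, 34 had no stretch of their own, against 3 of the 29 with 1 to 9 reads and 0 of the 70. The setting used for reads that fit several genes was not given in the sources used here, and its part in the counts was not tested. Differences in reads or breadth between alpha and beta segments are therefore not read as differences in their RNA.

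**Figure D1:**
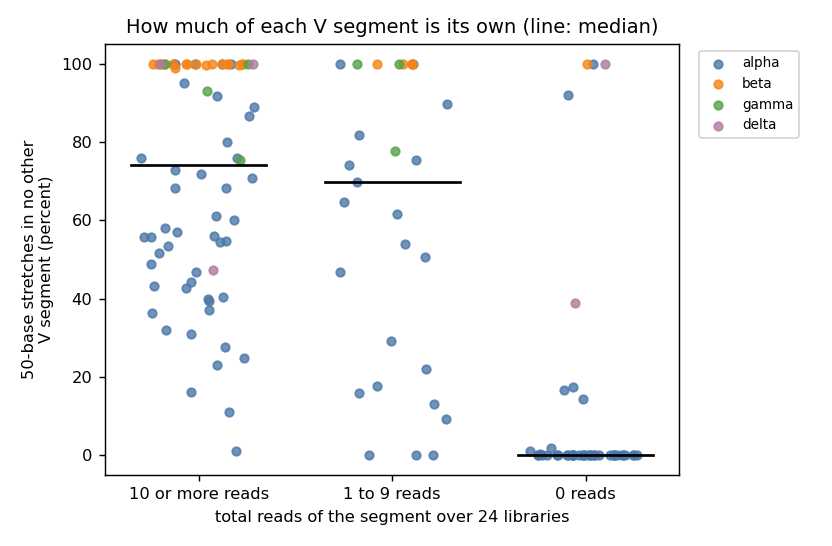
Share of 50-base stretches that a V segment shares with no other V segment (y axis, percent), for segments with 10 or more reads, 1 to 9 reads and 0 reads over 24 libraries; 1 point per segment, coloured by chain, horizontal line for the median of the class, 2 V genes without a chain name not drawn. Most of the 0-read segments lie at 0%, and the beta points at 10 or more reads lie at 98.8 to 100%.

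The mouse alpha locus on chromosome 14 carries repeated blocks, and copies are named with the letters d and n. Of 46 alpha segments without a letter, 31 were among the 70 and 5 had 0 reads. Of 34 d copies, 9 were among the 70 and 19 had 0 reads, and of 28 n copies 6 were among the 70 and 17 had 0 reads. Trav11 and Trav11d are 100% identical over 342 aligned bases and both had 0 reads, so a count of 0 sets no limit on invariant natural killer T cell transcripts here. Trav1, the alpha segment of mucosal-associated invariant T cells, had 16 reads in 6 libraries. Other genes at 0 had sequence of their own, among them Trbv5, Trav23 and Trdv5 with 100% of stretches and Trav15-1-dv6-1 with 91.9%. At the threshold itself, Tcrg-V1, Trav14-2, Trav6d-3, Trav7d-3 and Trav9n-4 were just inside with 10 reads, and Trav14n-3, Trav6-1 and Trav7n-4 just outside with 9.

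The 70 segments held 4077 of the 4191 reads on V genes. Beta segments took 2499 of these reads (61.3%), alpha segments 1290 (31.6%), gamma segments 165 (4.05%) and delta segments 123 (3.02%). A library held 57 to 390 reads, with a median of 163. At this depth a chain or segment with 0 reads in a library can still hold up to 0.769% of its V reads in the deepest library and 5.26% in the shallowest (3 reads of the library's V total). All intervals and limits cover counting error only. They also take every count as a separate read, whereas 57.5% of the 708 values above 0 were even numbers, 167 of them equal to 2 and 116 equal to 1. The same held over the whole table, where 42333 values were 2 and 24215 were 1.

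The total on V segments was on average lowest in the PBS group and overlapped between all groups. It was 1.61, 3.04 and 8.54 CPM in PBS (lowest, median, highest of 6 libraries), and 2.63, 4.46 and 5.43 CPM in GEM. The IGEL libraries gave 2.07, 6.76 and 9.72 CPM, and the LIGEL libraries 3.13, 5.18 and 7.88 CPM. The high PBS value belonged to replicate 1 alone, and the other 5 PBS libraries had at most 3.85 CPM. The IGEL libraries fell into 4 at 6.76 CPM or more and replicates 1 and 6 at 2.07 and 2.14 CPM.

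Group means were 3.62 ± 2.59 CPM in PBS, 4.30 ± 1.18 in GEM, 5.30 ± 1.52 in LIGEL and 6.09 ± 3.31 in IGEL (SD, n = 6 each). On the log2(CPM + 0.1) scale the LIGEL mean was 0.73 above the PBS mean, with a pooled SD of 0.69 between libraries. The IGEL mean was 0.74 above PBS (pooled SD 0.94) and the GEM mean 0.44 above PBS (pooled SD 0.69). All 6 LIGEL libraries, 4 IGEL libraries and 5 GEM libraries lay above the PBS median. Only 2 libraries, both IGEL, lay above the highest PBS library. LIGEL and IGEL differed by -0.00 on this scale (LIGEL minus IGEL), and LIGEL was 0.30 above GEM. A sum over a chosen list was given no test. Without PBS replicate 1 the differences from PBS were 1.02 for LIGEL, 1.03 for IGEL and 0.73 for GEM. Without PBS replicate 5 they were 0.80, 0.80 and 0.50. Neither PBS library turned the direction. Of the 24 libraries, 6 have count columns called A1 to A3, with a suffix 1 or 2, and the rest A7 to A24; what the names stand for is not stated. The 6 are GEM replicates 1 to 3, IGEL replicate 1 and LIGEL replicates 1 and 2, with no PBS library. Leaving them out gave differences from PBS of 0.56, 0.99 and 0.60. LIGEL minus IGEL was then -0.43, and LIGEL minus GEM turned to -0.04.

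**Figure D2:**
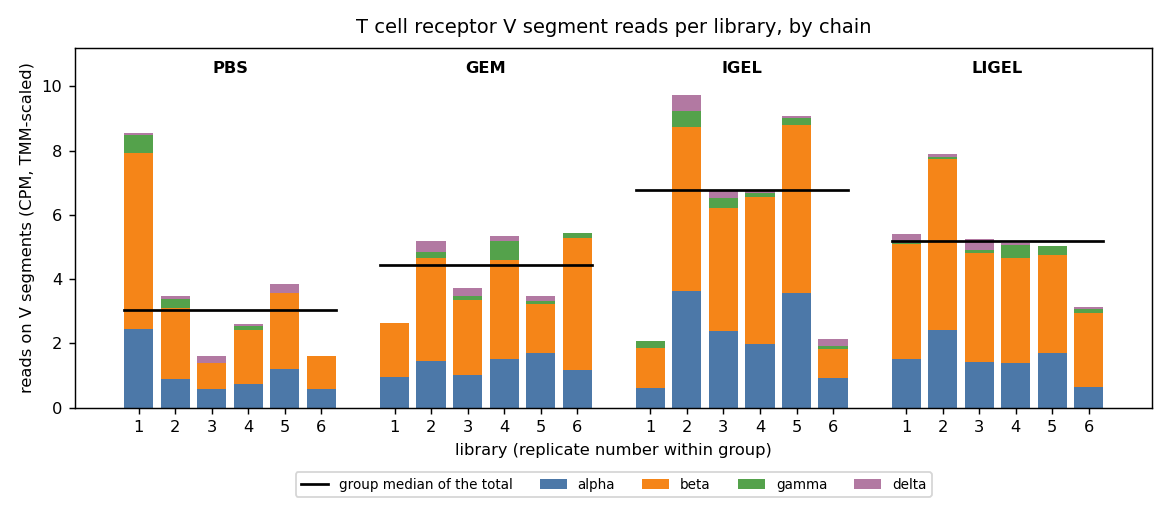
Reads on the 70 V segments per library in CPM (y axis, TMM-scaled), stacked by chain, for the 6 replicates of each group (x axis); the black line is the group median of the total. PBS replicate 1 reaches 8.54 CPM while the other PBS bars end at 3.85 CPM or below, and IGEL replicates 1 and 6 stand at 2.07 and 2.14 CPM beside 4 IGEL bars at 6.76 CPM or more.

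The V total followed the other T cell transcripts of the same library. Per 100 reads on the 8 receptor constant genes, which encode the part of each chain shared by all receptors, there were 30.4 ± 5.35 V reads (SD, n = 24, range 18.2 to 44.2). Alpha V reads came to 22.9 ± 6.46 per 100 Trac reads, and beta V reads to 36.9 ± 8.94 per 100 Trbc1 and Trbc2 reads. Per 100 reads on Cd3d, Cd3e, Cd3g and Cd247, the signalling subunits of the receptor complex, there were 31.04 ± 4.98 V reads. These ratios compare counts over genes of different length and are not levels.

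Over the 24 libraries the log2 V total and the log2 total of the constant genes had a Pearson r of 0.94 and a Spearman rho of 0.94. For the CD3 genes r was 0.96 and rho 0.95. These 2 correlations are given as descriptions, since the sums share libraries and scaling. Without the 2 libraries farthest from the median of the constant or CD3 total, PBS 3 and IGEL 2, r was 0.92 and 0.94. Among the 6 A1 to A3 libraries r was 0.95 and 0.98, and among the other 18 it was 0.94 and 0.95. For 12 genes of B cells and lymphoid organs r was 0.45 and rho 0.30, and r was 0.29 without IGEL 1 and IGEL 2. For 10 acinar genes r was 0.38.

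**Figure D3:**
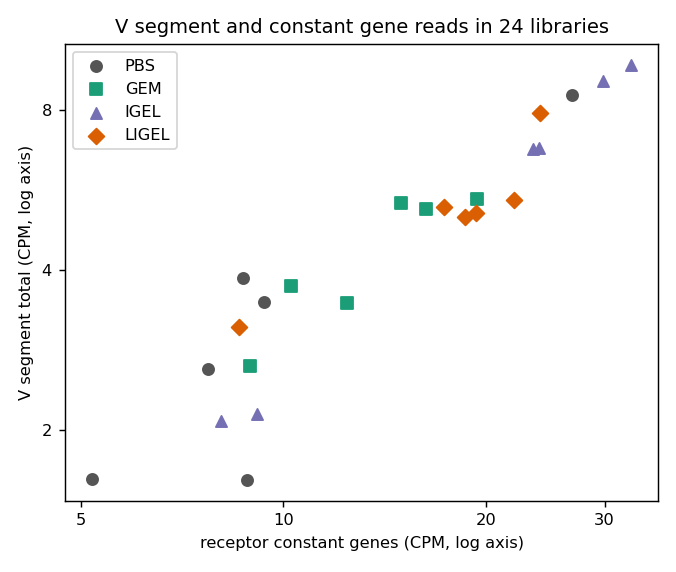
V segment total (y axis, CPM, log scale) against the summed receptor constant genes (x axis, CPM, log scale), 1 point per library, coloured and shaped by group. Libraries of all 4 groups lie along 1 band (r 0.94), with PBS replicate 1 among the high IGEL libraries and IGEL replicates 1 and 6 among the PBS libraries.

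Genes were ranked by the Spearman rho of their log2 CPM with the V total over the 24 libraries. The 14938 genes ranked had no T cell receptor biotype, passed a filter on low counts and had a mean of at least 1 CPM. Cxcr6 came first (rho 0.95). Cxcr6 is a chemokine receptor of T cells resident in tissue. Next came Lck, the kinase that starts receptor signalling (0.93), and Ipcef1 (0.93). Cd3g (0.92), the T cell surface proteins Cd6 (0.92) and Cd2 (0.91), Gimap3 (0.91) and Rasal3 (0.91) followed.

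Most constant genes had higher point estimates in the treated groups than in PBS. Of the 8, 5 passed the filter on low counts, and all 5 had positive log2 fold changes in LIGEL, IGEL and GEM against PBS, with medians of 0.74, 1.17 and 0.39. The smallest was Trbc1 in GEM at 0.01 ± 0.41 (SE), a value too close to 0 to give a direction. None passed edgeR's quasi-likelihood test after Benjamini-Hochberg adjustment over 19253 genes, and at an unadjusted p under 0.05 there were 1, 2 and 0 of 5, against 20.5%, 15% and 4.81% of all genes tested. Among the 3 not fitted, Tcrg-C4 went the other way, with means of 0.165 CPM in PBS, 0.0709 in GEM, 0.0696 in LIGEL and 0.058 in IGEL. Tcrg-C3, also not fitted and with 20 reads in all, was mixed. Its means were 0.0335 CPM in PBS, 0.0062 in GEM, 0.0348 in LIGEL and 0.0178 in IGEL. Trac was at 2.08, 2.89 and 11.5 CPM in PBS (lowest, median, highest) and at 3.09, 10.6 and 16.2 CPM in IGEL. Its log2 fold change in IGEL against PBS was 1.19 ± 0.41 (SE) with an adjusted p of 0.306. The 4 CD3 genes had positive values in 4 of 4 cases in LIGEL and IGEL and in 3 of 4 in GEM. None was called, and 0, 2 and 0 of 4 had an unadjusted p under 0.05 beside the same shares of all genes.

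Genes that mark developing T cells (Rag1, Rag2, Dntt, Ptcra) summed to at most 0.242 CPM in any library. Genes of B cells and lymphoid organs had group medians of 14.1 CPM in PBS, 17.3 in GEM, 14.3 in LIGEL and 15.9 in IGEL, with all 12 detected. Genes of natural killer cells, not all of them limited to these cells, had medians of 4.43 CPM in PBS, 6.98 in GEM, 8.22 in LIGEL and 7.14 in IGEL. The acinar genes went the other way, with medians of 17459 CPM in PBS, 10517 in GEM, 6281 in LIGEL and 8612 in IGEL, and their part in the V totals was not tested. A list of 8 genes for gamma-delta and type 17 (interleukin-17) T cells did not rise with every treatment. PBS libraries had a median of 9.32 CPM (range 5.25 to 53.5), GEM libraries 14.2, LIGEL libraries 7.95 and IGEL libraries 7.12 (range 2.68 to 13.6). Of 4 genes tested, 0 had a point estimate above PBS for IGEL, 2 for LIGEL and 2 for GEM. None was called.

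More reads went with more segments. PBS libraries showed 13 to 42 of the 70 segments (24.0 ± 10.3), GEM libraries 22 to 37 (28.3 ± 5.82), IGEL libraries 16 to 46 (32.3 ± 12.1) and LIGEL libraries 21 to 47 (33.3 ± 8.52; SD, n = 6 each). To set libraries side by side, the number expected in a draw of 57 reads, the lowest V total of any library, was computed for each. At this equal depth PBS had 19.2 ± 4.38 segments, GEM 21.3 ± 1.62, IGEL 21.96 ± 4.58 and LIGEL 22.4 ± 2.78. Group means thus differed by less than the SD of the PBS libraries, and the ranges, 13 to 24.8 in PBS and 18.1 to 25.5 in LIGEL, overlapped.

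**Figure D4:**
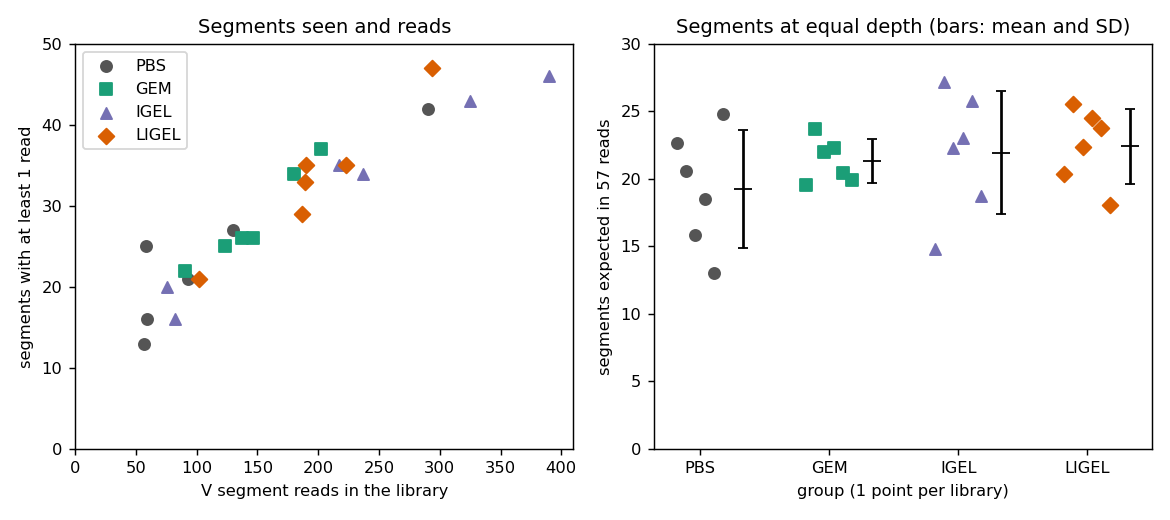
Left, segments with at least 1 read (y axis) against V reads of the library (x axis), 1 point per library; right, segments expected in 57 reads for each library by group, with mean and SD at the side. The left points climb together from 13 to 47 segments, and the right points of all 4 groups overlap, from 13 to 24.8 in PBS and from 18.1 to 25.5 in LIGEL.

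No library was taken over by 1 segment when the reads of all chains were pooled. The first segment held 17.8 ± 4.39% of V reads in PBS, 16.2 ± 3.37% in GEM, 16.9 ± 5.17% in LIGEL and 17.5 ± 5.71% in IGEL. The highest pooled share in any library was 26.5%, for Trbv14 in LIGEL replicate 6. Within a single chain the highest shares were larger. Trbv14 held 42% of the 50 beta reads in IGEL replicate 1, and Trav6d-3 held 55.6% of the 18 alpha reads in PBS replicate 5. The first 5 segments held 56.7 ± 8.90% in PBS, 49.3 ± 5.06% in GEM, 48.6 ± 6.47% in LIGEL and 48.05 ± 8.0% in IGEL. PBS libraries ran from 43.1 to 70.2% and LIGEL libraries from 41.3 to 58.8%, so these groups overlapped too. These shares were not brought to equal depth. Median V totals were 76 reads in PBS, 141.5 in GEM, 189.5 in LIGEL and 227 in IGEL. The first 5 held 70.2% of 57 reads in PBS replicate 5, 43.1% of 58 in PBS replicate 6 and 39.2% of 390 in IGEL replicate 2. The higher PBS mean is therefore not read as a difference in concentration.

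Reads counted to a beta segment were spread over more libraries than those counted to an alpha segment. Beta segments had a median total of 127 reads and alpha segments 20, and alpha segments also have less sequence of their own. The part of either in this breadth was not tested. A beta segment was read in a median of 19 of 24 libraries and an alpha segment in a median of 6. Of the 17 beta segments, 16 were read in 12 or more libraries, against 7 of 46 alpha segments. Trbv14 and Trbv13-2 were read in all 24. Over 50% of the reads came from 1 library for 6 segments: Trav14-1, Trav6-7-dv9, Trav6d-5, Trav7-1 and Trav6d-3 of the alpha chain, and Tcrg-V7 of the gamma chain. Trav6d-3 had all its 10 reads in PBS replicate 5, where alpha segments had 18 reads in all.

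Trbv14 (chromosome 6, 41135145 to 41135616, plus strand) was the leading segment, with 545 reads or 13.4% of the reads on the 70. It came first in 13 of 24 libraries. Its reads were 1, 11.5 and 44 in PBS (lowest, median, highest), 8, 14.5 and 29 in GEM, 8, 35.5 and 58 in IGEL, and 14, 23.5 and 34 in LIGEL. The groups overlapped, and IGEL held the libraries with the most reads, 58, 56 and 50. In the fit over 19253 genes its log2 fold change in IGEL against GEM was 0.95 ± 0.63 (SE), with an unadjusted p of 0.146 in edgeR's quasi-likelihood test and an adjusted p of 1.0. Against PBS the log2 fold change was 0.78 ± 0.63 in IGEL (edgeR, adjusted p = 0.529), 0.24 ± 0.63 in LIGEL (edgeR, adjusted p = 0.859) and -0.17 ± 0.64 in GEM (edgeR, adjusted p = 0.951).

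Trbv12-1 (chromosome 6, 41113550 to 41114067) had 408 reads in 22 libraries. PBS libraries had 0, 8 and 39 reads, GEM 8, 18 and 40, IGEL 5, 16 and 38, and LIGEL 11, 13.5 and 28. The 2 libraries without a read were PBS replicates 3 and 5. Its log2 fold change in GEM against PBS was 0.67 ± 0.70 (edgeR, adjusted p = 0.824), and in LIGEL against PBS 0.31 ± 0.70 (edgeR, adjusted p = 0.830). Trbv12-2, 88.3% identical to it over the whole segment, had 128 reads, and the shares of the 2 did not go together in every library: in IGEL replicate 5 Trbv12-2 had 22 reads and Trbv12-1 had 12.

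Trbv13-2 (chromosome 6, 41121396 to 41121832) had 260 reads, with 5, 7 and 28 in PBS, 4, 8 and 14 in GEM, 1, 8 and 19 in IGEL and 3, 15.5 and 30 in LIGEL. Its LIGEL mean was 0.410 ± 0.228 CPM and its IGEL mean 0.244 ± 0.154 CPM (SD, n = 6). The log2 fold change in LIGEL against IGEL was 0.74 ± 0.53 (edgeR, adjusted p = 1.0), and in LIGEL against PBS 0.36 ± 0.53 (edgeR, adjusted p = 0.722). Trbv13-1, 88.7% identical to it, had 130 reads, of which 29 lay in IGEL replicate 3 and 24 in LIGEL replicate 3. In IGEL replicate 3 Trbv13-1 came first with 12.2% of V reads while Trbv13-2 had 1 read.

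Trbv14, Trbv12-1 and Trbv13-2 were the only segments of the 70 to pass the filter on low counts. None of the 3 was called at an adjusted p under 0.05 in any of the 6 comparisons, and neither was any other gene of the 19253, so the background was 0% in each. Without PBS replicate 5, edgeR called 173 of 19525 genes in LIGEL against PBS and 18 in IGEL against PBS, none of them a V segment. At an unadjusted p under 0.05, 0 of the 3 passed in any comparison. Over all genes tested, 20.5% passed at that level in LIGEL against PBS, 15% in IGEL against PBS, 4.81% in GEM against PBS, 1.26% in LIGEL against IGEL, 3.16% in LIGEL against GEM and 1.58% in IGEL against GEM. DESeq2 called 0 segments in any comparison, and so did limma voom with quality weights.

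With the filter lowered to a total of 10 reads, all 70 segments entered a fit over 28870 genes, and again 0 of 70 and 0% of all genes were called. The point estimates were above PBS for 47 segments and below for 19 in LIGEL, for 51 and 17 in IGEL, and for 41 and 29 in GEM. Over all genes, 46.9%, 47.04% and 45.7% had higher point estimates. The 70 segments were chosen on reads summed over every group, and the V total was on average lowest in PBS. Such a choice can favour segments read mainly in treated libraries. Its part in the direction counts was not tested, so they are not read as a shift shared by the segments. The share past an unadjusted p of 0.05 lay near the background in LIGEL against PBS (12 of 70 segments, background 17.7%) and was 15 of 70 in IGEL against PBS (background 13.3%) and 9 of 70 in GEM against PBS (background 6.03%). The 3 comparisons share the PBS libraries. For LIGEL against IGEL the numbers were 10 of 70 (background 3.63%), for LIGEL against GEM 7 of 70 (5.19%) and for IGEL against GEM 11 of 70 (3.87%). These edgeR numbers depended on the method. DESeq2 had 3, 4 and 2 of 70 at that level in LIGEL, IGEL and GEM against PBS. Over all 35028 genes it had 4940, 3834 and 1502. In the other 3 comparisons, in the order above, DESeq2 had 1, 2 and 1 of 70, beside 519, 1094 and 592 of all genes. Most of the 70 segments had 0 reads in most libraries, and their fold changes are not given.

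Trbv16 (chromosome 6, 41151740 to 41152230) had 153 reads over 20 libraries, most of them in LIGEL replicates 1 and 2. It was the first segment in both, with 31 reads or 16.6% of V reads in replicate 1 (Wilson 95% interval 11.9 to 22.6%) and 46 reads or 15.6% in replicate 2 (11.9 to 20.3%). Among beta reads alone its share there was 25.0% and 23.1%, and the next highest library was PBS replicate 3 with 13.3%. The other 4 LIGEL libraries had 0 to 10 reads, and PBS, GEM and IGEL libraries had at most 4, 6 and 10 reads. Trbv16 was thus high in 2 of 6 LIGEL libraries, which are the 2 with the count column name A3. The other A1 to A3 libraries, GEM replicates 1 to 3 and IGEL replicate 1, had 0, 6, 5 and 2 Trbv16 reads.

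Other beta segments led in single libraries. Trbv17 had 151 reads, of which 31 lay in PBS replicate 1 and 21 in IGEL replicate 3. Trbv3 had 144 reads and was first in PBS replicate 6 with 8 reads. Trbv2, with 127 reads, had 10 reads or 28.6% of beta reads in PBS replicate 5.

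**Figure D5:**
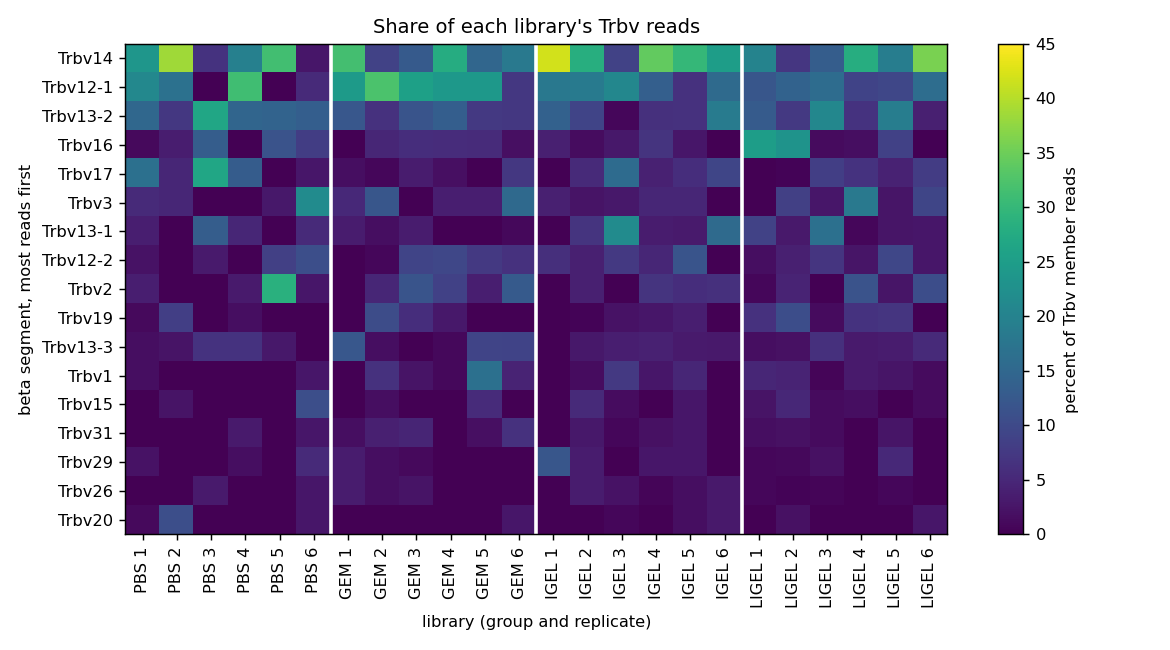
Share of each library's Trbv reads (colour, percent) for the 17 beta segments (rows, most reads first) in the 24 libraries (columns, by group). Trbv14 is bright in most columns, Trbv16 is bright in LIGEL replicates 1 and 2 (25.0% and 23.1%), and Trbv2 in PBS replicate 5 (28.6%).

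The beta locus on chromosome 6 also holds pancreatic trypsinogen genes, which acinar cells express strongly. The table holds 13 trypsin family genes of this locus, counted together here as trypsinogen genes, and 11 of them passed the filter on low counts. Trbv1, Trbv2, Trbv3, Trbv29 and Trbv31 lie within 50 kb of one of the 13, at 3.39 to 32.6 kb. The neighbour of Trbv1, at 3.39 kb, is Prss58, which was not among the 11. These 5 segments took 31.4% of beta reads in PBS replicate 5, the library with the most trypsinogen reads (8.52% of its total). Their highest share was 39.1%, in GEM replicate 6, where trypsinogen genes held 3.84% of the total. They took 35.1% in PBS replicate 6, where trypsinogen genes held 0.19%. In LIGEL replicate 2 they took 20.6% of beta reads with trypsinogen genes at 0.0026% of the total. Whether their share follows the trypsinogen reads was not tested. Without these 5 segments the log2 difference of the V total from PBS was 0.70 in LIGEL, 0.76 in IGEL and 0.36 in GEM.

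The 6 leading segments held 35.97% of alpha reads, out of 46 alpha segments, and 66.5% of beta reads, out of 17 beta segments. These shares depend on the number of segments per chain and are not read as a difference in use. Trav5-4 led with 107 reads in 16 libraries, of which 33 lay in IGEL replicate 5, where it held 25.8% of alpha reads. Trav9-2 had 88 reads in 14 libraries, with 27 in IGEL replicate 3, or 32.1% of alpha reads there. Trav3-3 had 81 reads in 17 libraries, with at most 12 in any. Trav10 (chromosome 14, 53505727 to 53506286) had 80 reads in 15 libraries, with 18 in IGEL replicate 2 and 14 in GEM replicate 5, where it was the first segment of all. Only 1 of 6 PBS libraries had a Trav10 read, against 5 in GEM, 4 in IGEL and 5 in LIGEL, at median V totals of 76, 141.5, 227 and 189.5 reads. PBS replicate 1 had 7 reads on the near-identical Trav10d and 1 on Trav10n, and PBS replicate 3 had 1 on Trav10d. The number of libraries therefore depends on the copy to which reads were counted.

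Reads of Trav10, Trav10n and Trav10d cannot be assigned with certainty, as these segments are 98.3 to 99.3% identical. Trav10n had 54 reads and Trav10d 27, of which 10 came from GEM replicate 6. Trav9-4 also had 54 reads, with 13 in LIGEL replicate 2 and 12 in GEM replicate 5. Trav6-7-dv9, which delta chains can also use, was first in IGEL replicate 6 with 9 of 76 V reads.

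Gamma and delta reads were few. Trgv2 (chromosome 13, 19336573 to 19337167, minus strand) had 131 of the 165 gamma reads, with 0, 2 and 18 in PBS, 0, 4 and 16 in GEM, 1, 8 and 20 in IGEL, and 1, 3 and 6 in LIGEL. It is 95.2% identical to Tcrg-V1, which had 10 reads in 4 libraries. Tcrg-V6, the segment of a gamma-delta population known for interleukin-17, had 13 reads in 5 libraries. Tcrg-V7, known from gamma-delta cells of the gut lining, had 11 reads, of which 8 lay in LIGEL replicate 5. Trdv4 had 90 of the 123 delta reads in 18 libraries, with medians of 3, 4, 1.5 and 2.5 reads in PBS, GEM, IGEL and LIGEL. Trdv1 had 18 reads in 5 libraries and Trdv2-2 15 in 4.

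Chain shares overlapped between the groups. Beta segments held 61.6% of V reads on average in PBS, 60.8% in GEM, 66.1% in LIGEL and 56.2% in IGEL, and alpha segments, in the same order, 30.9%, 31.8%, 27.9% and 35.7%. Gamma segments held 3.09% in PBS, 4.12% in GEM, 3.43% in LIGEL and 4.63% in IGEL. PBS replicates 3, 5 and 6 and GEM replicate 1 had no gamma read, which allows shares of up to 5.08%, 5.26%, 5.17% and 3.33%. Delta segments held 4.42% in PBS, 3.31% in GEM, 2.61% in LIGEL and 3.46% in IGEL.

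Libraries of the same group were about as alike in their segments as libraries of different groups. Likeness was measured as the cosine between the read profiles of 2 libraries, where 1 means equal proportions. Its median over the 17 beta segments was 0.72 for the 60 pairs within a group and 0.70 for the 216 pairs between groups. Over the 46 alpha segments it was 0.22 within and 0.26 between groups. LIGEL replicates 1 and 2, which shared the high Trbv16, had a cosine of 0.87 over beta segments, at rank 41 of 276 pairs, and of 0.30 over alpha segments, at rank 110. Over all 70 segments their cosine was 0.80. It was 0.77 for GEM replicates 2 and 3, which share the column name A2, and 0.77 for GEM replicate 1 and IGEL replicate 1, which share A1.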

How the data were processed

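Bulk RNA of 24 libraries was analysed from 1 table of raw counts per gene deposited by the authors, with no normalization. Per the submitters' processing notes, HISAT2, featureCounts of Subread and build mm10 were used. Their versions, the strand setting and the handling of reads that fit several genes are not given in the sources used here. Library totals were 27.1 to 40.5 M reads. The fit used edgeR 4.0.16 (R 4.3.3): filterByExpr selected genes (min.count 10, min.total.count 15; 19253 genes), libraries were scaled by TMM, and 1 quasi-likelihood model of 4 groups was fitted with robust estimation. The 6 contrasts were tested with Benjamini-Hochberg adjustment over all genes and a threshold of 0.05. The fit was tested on simulated data. Totals, segment numbers and shares got no test. Segment ends, shared 50-base stretches and identities came from GENCODE M21 transcripts, with Biopython 1.88. All 144 V genes had the table's coordinates there.

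Genes named are the 6 alpha and 6 beta segments with the most reads, every gamma and delta segment, Trav1, Trav11 and Trav11d, the first segment of each library, the segments with the smallest p per contrast, 8 genes most like the V total, and marker lists. Segments named for their threshold, copy, trypsinogen neighbour or concentration in 1 library, and near relatives of a named segment, were chosen after their values were seen. Members and lists were chosen with earlier results of these data known. Alternatives were other scalings and filters, DESeq2 1.42.0, limma 3.58.1 voom, the replicate number as a block, other depths and counting rules, and leaving out libraries.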

Additional observations from a re-analysis of the deposited data

Results flagged for a closer look

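Of 92 sets of 6 libraries, 14 had a library far from the others (Dixon's 95% critical value for a gap at the range's end). Chance flags about 1 in 20 sets only where values are independent and normally distributed. These sets share libraries and many rest on few reads, so 14 of 92 is not compared with that rate. The V segment total of PBS replicate 1 was 8.54 CPM, while the next PBS library had 3.85 CPM. The same library was high for Trbv13-2 (0.825 CPM) and Trbv17 (0.913 CPM). PBS replicate 3, with 59 V reads, had the lowest beta share of its group (50.8%) and the highest Trav3-3 (0.164 CPM). GEM replicate 4 had the highest gamma share of its group (11.1%) and the highest Trgv2 (0.475 CPM). GEM replicate 5 was high for Trav10 (0.394 CPM) and Trav9-4 (0.338 CPM), and GEM replicate 6 for Trbv17 (0.298 CPM). In the IGEL group, replicate 5 was high for Trav5-4 (0.921 CPM) and replicate 2 for Trav10 (0.448 CPM) and Trdv4 (0.324 CPM). PBS replicate 2 was the only PBS library with reads on Trav10 itself (0.0803 CPM), while PBS replicates 1 and 3 had reads on its near-identical copy Trav10d.

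Outside the segments counted above, 34 V pseudogenes had 54 reads in all. LIGEL replicate 1 had 0.492 CPM on them, above the highest PBS library (0.164 CPM).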

How the results depend on the processing

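No V segment was called in any fit run, including every fit without 1 library, although the number of genes called over the whole table did change: against PBS, edgeR called 0 in each treated group, DESeq2 1207, 40 and 0, and voom 728, 384 and 66 in LIGEL, IGEL and GEM. Without PBS replicate 5 edgeR called 173, 18 and 0 in these, and without PBS replicate 4 it called 2 in LIGEL. A doubled equal depth of 114 reads leaves out 8 libraries, PBS replicates 3 to 6 among them. The expected segments were then 28.7 in PBS (replicates 1 and 2 alone), 27.3 in GEM, 30.5 in LIGEL and 32.5 in IGEL. Merged into families they were 17.9 in GEM and 18.1 in LIGEL, and without the trypsinogen neighbours 17.7 and 18.8. With 3 reads needed, 12.2 segments were seen in PBS, 15.7 in GEM, 20.3 in LIGEL and 22.7 in IGEL. In place of the first 5 segments, the first alone held 17.8, 16.2, 17.5 and 16.9% in PBS, GEM, IGEL and LIGEL, and the first 5 families held 57.4% in GEM, 56.2% in IGEL and 56.9% in LIGEL. Counting shared segments with delta gave delta shares of 7.0% in GEM and 8.34% in IGEL. These follow from what each alternative counts.

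Uncalled log2 fold changes turned sign. For Trbv14 in GEM against PBS (-0.17 as reported) voom gave 0.51, the fit without the A1 to A3 libraries 0.13, and leaving out 1 library -0.42 to 0.31. For Trbv13-2 in GEM against PBS (-0.35) voom gave 0.0181 and single libraries left out -0.55 to 0.21. Trbv12-1 in IGEL against GEM (-0.17) was 0.27 without A1 to A3 and -0.438 to 0.0824 with single libraries left out, and Trbv13-2 in that comparison (-0.03) was 0.00159 with plain library totals and -0.34 to 0.20. Leaving out single libraries also gave -0.0195 to 0.715 for Trbv14 in LIGEL against PBS, -0.69 to 0.18 for Trbv13-2 in IGEL against PBS and -0.401 to 0.0778 for Trbv12-1 in LIGEL against IGEL. The cause was not tested. The log2 differences in the V total from PBS ranged over 0.56 to 1.02 in LIGEL, 0.56 to 1.03 in IGEL and 0.26 to 0.73 in GEM without single libraries. Without the A1 to A3 libraries LIGEL minus IGEL was -0.43.

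Replicate numbers do not pair the samples by any label, and of 36 same-numbered pairs 14 had a correlation of deviations over 0.1 (range -0.593 to 0.708). With the replicate number as a block, 0 segments were called and Trbv14 in GEM against PBS was 0.12.

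With 57 to 390 V reads per library, 3 of the 70 segments had enough reads to pass the filter of the reported fit, so differences in the others were not tested there.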
